A study of Mus musculus with 6 samples.

Results

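The sterol and fatty acid synthesis genes are a set of 34 genes, taken by symbol from a table of 54532 genes. They comprise 18 enzymes of cholesterol synthesis, 7 regulators and carriers of sterols, and 9 enzymes of fatty acid synthesis, elongation and desaturation. Each symbol matched a row, and all 34 genes passed the filter on low values used here, a mean of at least 0.5 FPKM over the libraries. Fdps passed only through the group in which it was high. FPKM counts the fragments of a gene per kilobase of its length and relative to the size of the library. The libraries hold poly(A) RNA of haploid mouse embryonic stem cells, which are derived from the early embryo and carry a single set of chromosomes, and they form 2 groups of 3. The first group was p53-deficient haploid cells, whose titles read P53ki and whose genotype is given as lacking P53. The other group was wild-type (WT) haploid cells, whose titles all carry the mark T3-1. Both groups were of strain 129SV, and neither age, treatment nor the way in which p53 was lost is given in the labels. The design sets the p53 knockout against WT, and the question taken up here is how far the sterol and the fatty acid branch of lipid synthesis differed between them.

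Cholesterol is made from acetyl-CoA through mevalonate, farnesyl pyrophosphate, squalene and lanosterol. Fatty acids are made from the same acetyl-CoA by carboxylation to malonyl-CoA and repeated condensation, and are then elongated and desaturated. Both branches are controlled by the SREBP transcription factors: SREBP2, from Srebf2, acts chiefly on sterol genes, and SREBP1, from Srebf1, on fatty acid genes. SREBP precursors are held in the endoplasmic reticulum by SCAP and the INSIG proteins when sterol is plentiful, and are cut to an active form in the Golgi when it is scarce. In cultured human cells p53 has been described to restrain the mevalonate pathway. That is background and was not tested here.

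Promoters of SREBP2 targets are known to combine sterol regulatory elements with boxes for the factors NF-Y and Sp1, so the start of each gene was searched for those letters. RefSeq promoter windows of the build GRCm38.p6, running 250 bases before to 50 bases after a start, were on hand for 26 of the 34 genes. Both strands were read. Sqle, Fdps, Fdft1, Stard4, Npc1, Scd1, Scd2 and Fads1 had no window and were not searched. A gene with several starts has several windows. The NF-Y box CCAAT occurred in at least 1 window of 14 of 15 sterol enzymes (93.3%), of 3 of 6 fatty acid enzymes and of 4 of 5 regulators and carriers, and of 43.7% of 10050 genes tested. Counted by window it was in 14 of 18 sterol enzyme windows (77.8%) and 3 of 6 fatty acid enzyme windows. It was in 5 of 10 windows of regulators and carriers, 38.4% of windows of genes tested and 37.4% of all 32851 windows. The Sp1 box GGGCGG occurred for 14 of 15 sterol enzymes, 3 of 6 fatty acid enzymes and 5 of 5 regulators and carriers, and for 68.3% of genes tested. By window that was 15 of 18, 3 of 6 and 8 of 10. The share was 62% for windows of genes tested and 35.7% for all windows. The sterol regulatory element TCACNCCAC was in the window of Hmgcs1 and of no other member, and in 1.24% of all windows. The E-box CACGTG, which SREBP proteins can also bind, was in 3 of 18 sterol enzyme windows and 3 of 10 windows of regulators and carriers. No fatty acid enzyme window held it, beside 10.1% of windows of genes tested and 7.15% of all windows. Overlaps between motifs were not removed, the motifs were chosen with results known, and a match describes the letters alone.

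The stretches printed are those of the 4 sterol enzymes with the largest rise, of the 2 sterol enzymes that did not pass the test, and of the fatty acid enzymes with the largest rise and fall. Only genes that had a window, with a RefSeq start within 40 bases of the deposited start, were taken. Sqle, Idi1, Fdps and Msmo1, which all rose more than Hmgcs1, were therefore passed over, as was Scd1 among the fatty acid enzymes. Each run holds 150 bases, 5′ to 3′, and ends before both starts. NF-Y boxes on either strand (CCAAT or ATTGG) and the sterol regulatory element are in capitals. The Pmvk stretch is chr3:89454391-89454540, plus strand. That of Mvd is chr8:122443423-122443572, minus strand. That of Lss is chr10:76531438-76531587, plus strand. That of Hmgcs1 is chr13:119690201-119690350, plus strand. That of Hsd17b7 is chr1:169969242-169969391, minus strand. That of Acat2 is chr17:12960748-12960897, minus strand. That of Fads2 is chr19:10101504-10101653, minus strand. That of Elovl6 is chr3:129532205-129532354, plus strand.
Pmvk: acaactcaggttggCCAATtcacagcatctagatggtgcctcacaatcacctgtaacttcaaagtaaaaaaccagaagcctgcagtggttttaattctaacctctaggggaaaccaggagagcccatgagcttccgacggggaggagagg
Mvd: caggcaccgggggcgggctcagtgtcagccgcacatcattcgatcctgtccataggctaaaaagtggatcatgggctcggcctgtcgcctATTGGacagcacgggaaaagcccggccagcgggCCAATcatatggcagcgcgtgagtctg
Lss: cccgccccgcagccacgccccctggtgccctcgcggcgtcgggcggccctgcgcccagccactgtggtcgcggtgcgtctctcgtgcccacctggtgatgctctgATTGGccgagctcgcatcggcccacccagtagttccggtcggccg
Hmgcs1: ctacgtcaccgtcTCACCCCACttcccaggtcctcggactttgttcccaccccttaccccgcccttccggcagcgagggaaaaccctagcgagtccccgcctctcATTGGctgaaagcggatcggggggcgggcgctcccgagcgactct
Hsd17b7: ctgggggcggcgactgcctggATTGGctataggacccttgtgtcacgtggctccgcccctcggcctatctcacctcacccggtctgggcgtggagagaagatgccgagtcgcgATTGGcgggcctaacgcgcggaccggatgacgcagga
Acat2: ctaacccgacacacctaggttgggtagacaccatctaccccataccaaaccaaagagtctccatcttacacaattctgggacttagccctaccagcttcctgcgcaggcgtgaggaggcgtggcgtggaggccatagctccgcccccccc
Fads2: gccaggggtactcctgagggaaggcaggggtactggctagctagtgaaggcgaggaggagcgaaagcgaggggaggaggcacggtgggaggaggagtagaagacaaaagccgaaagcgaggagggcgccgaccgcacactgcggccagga
Elovl6: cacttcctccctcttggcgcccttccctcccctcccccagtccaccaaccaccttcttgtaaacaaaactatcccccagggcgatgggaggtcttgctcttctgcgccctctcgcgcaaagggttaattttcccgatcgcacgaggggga
Pmvk, Mvd, Lss and Hmgcs1, which all rose, have an NF-Y box in the stretch shown, and Hmgcs1 also has the element TCACCCCAC, from position -137 counted from its RefSeq start. Hsd17b7, which did not pass, has NF-Y boxes too, so this box did not separate the 2 kinds of gene. Acat2, Fads2 and Elovl6 show none.

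The rebuilt read totals were 11536412 to 21218976 in the p53-deficient libraries and 17065841 to 20331905 in the WT libraries. Trp53, the gene of p53, had 9.71, 9.71 and 9.98 FPKM in p53-deficient libraries, against 64.5, 69.8 and 69.6 FPKM in WT libraries. Cdkn1a, the p53 target that encodes p21, averaged 9.66 ± 0.645 FPKM in p53-deficient cells and 87.6 ± 0.523 FPKM in WT cells (SD, n = 3 each). Stem cell markers were present in every library, and of 10 tested 5 were higher and 4 lower, beside 35.3% and 31.3% of all genes tested. Their sum was 2729 to 2831 FPKM in p53-deficient and 3474 to 3538 FPKM in WT libraries. Dppa5a, 1 of the 4 that were lower, had 1075 ± 35.1 FPKM in p53-deficient and 2007 ± 30 FPKM in WT cells and differed by more than the sum. Among the 5 that were higher, Utf1 averaged 303 ± 19.4 FPKM in p53-deficient and 61.6 ± 3.83 FPKM in WT cells. Esrrb, also higher, averaged 101 ± 1.61 FPKM in p53-deficient and 54.4 ± 0.379 FPKM in WT cells. Markers of fibroblasts, the usual feeder cells, differed more in sum: 26 of 26 tested were lower, and 29 summed to 542 to 569 FPKM in p53-deficient and 2007 to 2017 FPKM in WT libraries. Of those tested, Pdgfra (0.262 FPKM in p53-deficient and 1.26 FPKM in WT cells) passed the filter only through its WT values. Only S100a4 was listed at 0, in 2 p53-deficient libraries. The sum of 4 Y-linked genes moved in the same way, with 0.330 to 0.395 FPKM in p53-deficient and 3.51 to 3.94 FPKM in WT libraries. The part of fibroblast RNA in the results below was not tested. Since RNA came from whole cultures, fewer cells of a type and less RNA per cell cannot be told apart. The labels do not state separate cultures, so p-values reflect the spread among the libraries at hand, which may be technical. A difference between lines or clones and the loss of p53 cannot be told apart.

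The sterol enzymes were higher in p53-deficient cells at nearly every step of the pathway, and the fatty acid enzymes split in both directions. Of 18 sterol enzymes 16 rose, none fell and 2 did not pass, where calls needed an adjusted p under 0.05 in limma, with Benjamini-Hochberg adjustment over 15144 genes. Of all genes tested 35.3% were called higher and 31.3% lower. Of 9 fatty acid enzymes 5 rose, 2 fell and 2 did not pass, and of 7 regulators and carriers 3 rose, 3 fell and 1 did not pass. The median log2 fold change, p53-deficient over WT on the log2(FPKM + 1) scale, was 0.42 for the sterol enzymes, 0.06 for the fatty acid enzymes and -0.11 for the regulators and carriers, beside 0.03 for all genes tested. Among genes of mean FPKM at least 5 the median was 0.10 for all genes. There it was 0.42 for the sterol enzymes, 0.155 for the fatty acid enzymes and 0.15 for the regulators and carriers. These medians are descriptions, since the genes were chosen with results known. In 16 of the 18 sterol enzymes all p53-deficient libraries lay above all WT libraries, as they did in 37.7% of all genes tested. Fdps, counted among these 16 and among the 16 rises, passed the filter on low values only through its p53-deficient libraries.

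**Figure D1:**
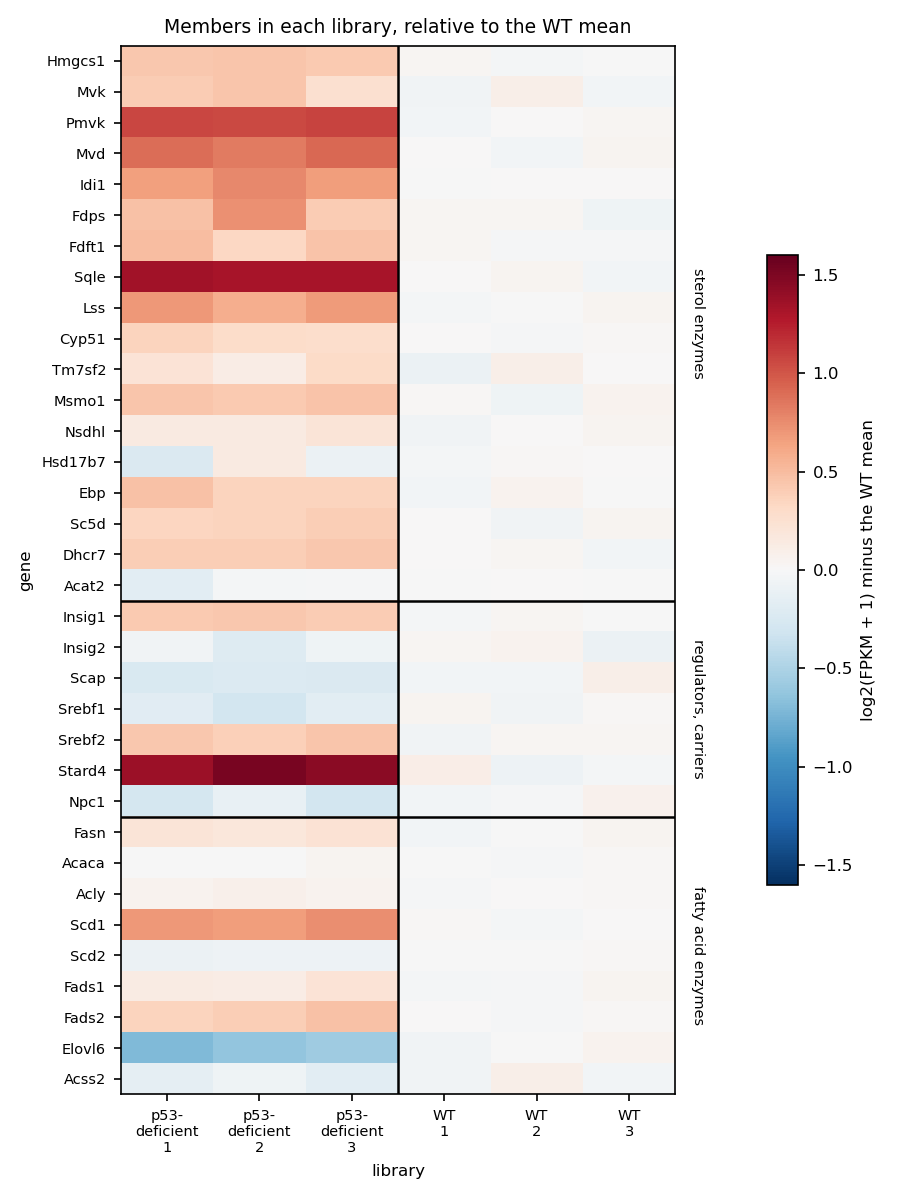
Log2(FPKM + 1) of the 34 genes (rows) in the 3 p53-deficient and 3 WT libraries (columns), minus the WT mean of each gene; red is above it and blue below it. The block of sterol enzymes at the top is red in all p53-deficient libraries except for Acat2 and Hsd17b7, and the fatty acid block at the bottom holds both colours.

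The first steps of the sterol pathway lead to mevalonate and its phosphates. Acat2, a cytosolic thiolase that joins acetyl-CoA units, had 34.6, 38.2 and 38.3 FPKM in p53-deficient libraries, against 38.9, 39.0 and 38.7 FPKM in WT libraries. All p53-deficient values lay below all WT values, but the change of -0.07 (95% interval -0.17 to 0.03) did not pass (limma adjusted p = 0.183). Under scaling by the median log2 ratio Acat2 was called lower (adjusted p = 0.0165), as it was after quantile normalization and with voom weights. Hmgcs1, which makes HMG-CoA, had 40.9, 41.0 and 40.3 FPKM in p53-deficient libraries, against 30.6, 29.3 and 29.9 FPKM in WT libraries. Its groups did not overlap, and it rose 1.36-fold (log2 fold change 0.43, SE 0.0247, limma adjusted p = 1.18e-05). Mevalonate kinase, Mvk, averaged 13.0 ± 0.942 FPKM in p53-deficient cells and 9.79 ± 0.637 FPKM in WT cells, a smaller rise of 0.37 on the log2 scale (limma adjusted p = 0.00203).

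The next kinase and the decarboxylase rose further than the steps before them. Pmvk, which adds the second phosphate to mevalonate, had 38.0, 37.6 and 38.4 FPKM in p53-deficient libraries, against 17.0, 17.7 and 18 FPKM in WT libraries. It rose 2.16-fold, with a log2 fold change of 1.07 (SE 0.0290, limma adjusted p = 5.06e-07), and the lowest p53-deficient library was far above the highest WT library. Mvd, the decarboxylase that forms isopentenyl pyrophosphate, had 34, 32.7 and 34.6 FPKM in p53-deficient libraries, against 17.8, 17.2 and 18.5 FPKM in WT libraries. It rose 1.89-fold (log2 fold change 0.88, SE 0.0353, limma adjusted p = 2.39e-06). Idi1, the isomerase of that product, had 14.7, 15.9 and 14.8 FPKM in p53-deficient libraries, against 8.86, 8.97 and 8.95 FPKM in WT libraries. It rose 1.70-fold (log2 fold change 0.70, SE 0.0371, limma adjusted p = 8.32e-06). Its pseudogene Gm13502, identical over 684 bases, averaged 3.05 FPKM in p53-deficient and 2.63 FPKM in WT cells, so reads could be assigned to either. In mm10 Pmvk lies at chr3:89454541-89469013, Mvd at chr8:122433601-122443422 and Idi1 at chr13:8885501-8892451, so these neighbours in the pathway lie on 3 chromosomes.

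The prenyl steps lead to squalene, the first committed sterol precursor. Fdps, farnesyl pyrophosphate synthase, had only 67, 54 and 51 rebuilt reads in p53-deficient libraries, against 22, 25 and 19 in WT libraries. These are 0.757, 1.11 and 0.687 FPKM in p53-deficient libraries, against 0.303, 0.301 and 0.219 FPKM in WT libraries, the lowest levels among the sterol enzymes. The groups did not overlap, and the mean rose 3.10-fold (log2 fold change 0.53, SE 0.106, limma adjusted p = 0.00407). Its WT mean of 0.274 FPKM is below the filter of 0.5 FPKM, so Fdps entered the test only through its p53-deficient values. With no filter on low values it was called as well (limma adjusted p = 0.00917). At so low a level the scale sets the value: the log2 fold change was 1.52 with voom weights and 1.33 with 0.1 as pseudocount. Its level is uncertain: the processed pseudogene Gm3571, 98.9% identical over 1062 bases, stood at 8.05 FPKM in p53-deficient and 6.51 FPKM in WT cells. A second copy, Gm5873, averaged 1.44 FPKM in p53-deficient and 0.753 FPKM in WT cells. The sources used here do not give how reads with several matches were treated.

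Fdft1, squalene synthase, had 26.1, 23.2 and 25.4 FPKM in p53-deficient libraries, against 18.7, 18 and 18.1 FPKM in WT libraries. It rose 1.36-fold (log2 fold change 0.43, limma adjusted p = 0.000207). Exons of Ctsb on the other strand cover 18.3% of its exon length, and Ctsb averaged 31.5 FPKM in p53-deficient and 68.4 FPKM in WT cells, the opposite direction. Sqle (chr15:59315077-59331192), squalene epoxidase, which is rate-limiting for the later pathway, had 43.3, 42.3 and 42.2 FPKM in p53-deficient libraries, against 16.5, 16.9 and 15.8 FPKM in WT libraries. On the log2(FPKM + 1) scale this was the largest change among the sterol enzymes, 1.33 (SE 0.0306, limma adjusted p = 2.69e-07). The mean rose 2.60-fold, less than the 3.10-fold of the sparsely read Fdps. Lss, which closes the ring to lanosterol, had 6.71, 6.09 and 6.59 FPKM in p53-deficient libraries, against 3.65, 3.72 and 3.90 FPKM in WT libraries, and rose 1.72-fold (limma adjusted p = 3.68e-05).

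**Figure D2:**
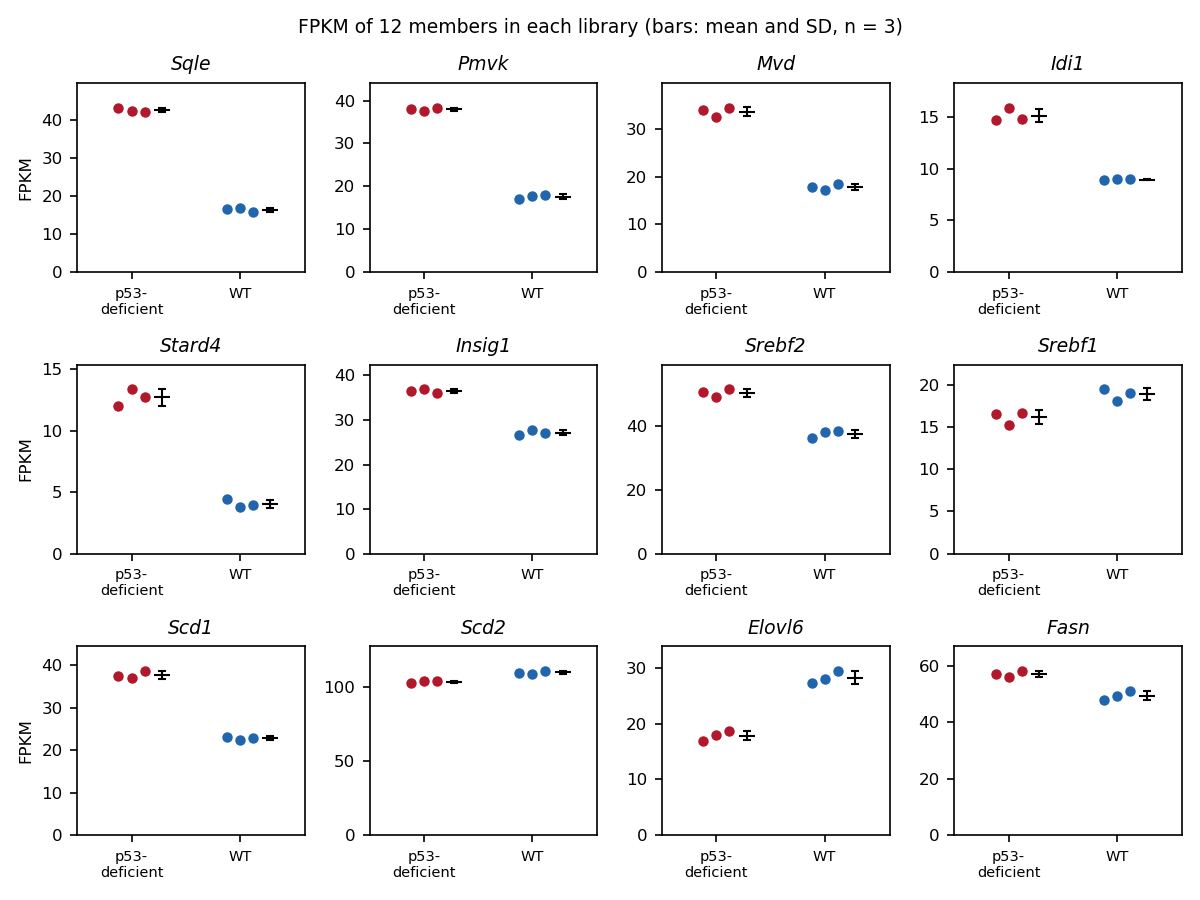
FPKM of 12 genes of the set in each library (points; bars give mean and SD, n = 3), with p53-deficient on the left and WT on the right of each panel and axes from 0. Sqle, Pmvk, Mvd, Idi1, Stard4 and Scd1 separate widely, Elovl6, Srebf1 and Scd2 are lower in p53-deficient cells, and Fasn differs by 1.16-fold.

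From lanosterol on, the enzymes that remove methyl groups and shift double bonds rose by less than Pmvk, Mvd, Idi1, Sqle and Lss, and by about as much as Hmgcs1, Mvk and Fdft1. Cyp51, the lanosterol demethylase, averaged 26.0 ± 0.779 FPKM in p53-deficient cells and 20.8 ± 0.297 FPKM in WT cells (log2 fold change 0.31, limma adjusted p = 0.000119). Msmo1, the methyl sterol oxidase, averaged 13.7 ± 0.173 FPKM in p53-deficient cells and 9.86 ± 0.454 FPKM in WT cells (0.44, limma adjusted p = 8.03e-05). Ebp, the sterol isomerase, averaged 38.9 ± 1.95 FPKM in p53-deficient cells and 29.4 ± 1.04 FPKM in WT cells (0.39, limma adjusted p = 0.000243). Sc5d, a desaturase, and Dhcr7, the last reductase of one arm of the pathway, changed to a like extent. Sc5d averaged 7.70 ± 0.158 FPKM in p53-deficient cells and 5.77 ± 0.261 FPKM in WT cells, and Dhcr7 10.5 ± 0.162 FPKM in p53-deficient cells and 7.68 ± 0.200 FPKM in WT cells. Their log2 fold changes were 0.36 and 0.41.

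The remaining post-lanosterol enzymes changed least. Nsdhl, a decarboxylating dehydrogenase, had 17.1, 17.1 and 18 FPKM in p53-deficient libraries, against 14.8, 15.6 and 15.9 FPKM in WT libraries. It rose by 0.16 on the log2 scale (limma adjusted p = 0.00717), without passing under scaling by the median log2 ratio (adjusted p = 0.150) or quantile normalization (adjusted p = 0.0671). Tm7sf2, a sterol reductase, had 2.81, 2.57 and 3.05 FPKM in p53-deficient libraries, against 2.07, 2.5 and 2.28 FPKM in WT libraries. Its groups only just separate, and the call (log2 fold change 0.21, limma adjusted p = 0.0390) was lost without p53-deficient replicate 1 (adjusted p = 0.0882) or 3 (0.113) and without WT replicate 1 (0.115) or 3 (0.0883). Tm7sf2 also shares 532 exon bases with Vps51 on the same strand, which averaged 0.878 FPKM in p53-deficient and 0.447 FPKM in WT cells.

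Hsd17b7, the ketoreductase that acts with Nsdhl, had 4.60, 6.22 and 5.13 FPKM in p53-deficient libraries, against 5.41, 5.65 and 5.6 FPKM in WT libraries. The p53-deficient values spread around the WT values, and the change of -0.06 (95% interval -0.28 to 0.16) did not pass (limma adjusted p = 0.589). Without p53-deficient replicate 2, the highest of the 6 libraries, it was called lower, with -0.16 (adjusted p = 0.0449).

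The sum over the 18 sterol enzymes was 377, 373 and 375 FPKM in p53-deficient libraries, against 257, 259 and 259 FPKM in WT libraries. The sums of the groups lay apart by many times their spread, with 375 ± 1.99 FPKM in p53-deficient cells and 258 ± 1.39 FPKM in WT cells (SD, n = 3 each). Each p53-deficient library gave nearly the same picture on its own: the median sterol enzyme stood 0.44, 0.41 and 0.41 above the WT mean on the log2 scale in replicates 1, 2 and 3. Of the 16 rises 13 were called in each of the 15 alternatives tried. Fdps was called in the 13 alternatives in which it passed the filter on low values, and Tm7sf2 and Nsdhl each lost the call in some. Fibroblast markers summed to 542 to 569 FPKM in p53-deficient and 2007 to 2017 FPKM in WT libraries. Whether that difference bears on the sterol enzyme values was not tested.

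Among the regulators Srebf2 and Insig1 rose, Srebf1 and Scap fell, and Insig2 did not pass. Srebf2 had 51.0, 49.3 and 51.7 FPKM in p53-deficient libraries, against 36.3, 38.4 and 38.4 FPKM in WT libraries. It rose 1.34-fold without overlap (log2 fold change 0.42, limma adjusted p = 4.71e-05). Srebf1 had 16.6, 15.3 and 16.7 FPKM in p53-deficient libraries, against 19.5, 18.2 and 19.1 FPKM in WT libraries. It fell to 0.855 times the WT mean (log2 fold change -0.21, limma adjusted p = 0.00541), so the genes of the 2 factors moved in opposite directions. RNA levels say nothing of how much of either protein was cut to its active form.

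The proteins that hold or escort SREBP differed among themselves. Insig1, a retention protein whose gene is itself an SREBP target, had 36.5, 36.9 and 36.2 FPKM in p53-deficient libraries, against 26.6, 27.7 and 27.1 FPKM in WT libraries. It rose 1.35-fold (log2 fold change 0.42, limma adjusted p = 1.36e-05), close to the 1.34-fold of Srebf2 and the 1.36-fold of Hmgcs1. Insig2, its relative, had 7.35, 6.53 and 7.26 FPKM in p53-deficient libraries, against 7.89, 8.03 and 7.15 FPKM in WT libraries. Those groups overlap, and the change of -0.11 (95% interval -0.25 to 0.03) did not pass (limma adjusted p = 0.146), although it was called lower under scaling by the median log2 ratio (adjusted p = 0.0224). Scap, the escort of SREBP, had 8.81, 8.99 and 8.90 FPKM in p53-deficient libraries, against 10.3, 10.3 and 11.4 FPKM in WT libraries. It fell to 0.837 times the WT mean (log2 fold change -0.23, limma adjusted p = 0.00327).

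The 2 carriers moved in opposite directions. Stard4 (chr18:33199355-33213862), which encodes a soluble protein that moves cholesterol between membranes, had 12, 13.4 and 12.7 FPKM in p53-deficient libraries, against 4.42, 3.77 and 3.93 FPKM in WT libraries. It rose 3.15-fold, with the largest log2 fold change of the 34 genes on the log2(FPKM + 1) scale, 1.45 (SE 0.0614, limma adjusted p = 3.17e-06). Npc1, which carries cholesterol out of lysosomes, had 4.18, 4.80 and 4.13 FPKM in p53-deficient libraries, against 5.09, 5.17 and 5.57 FPKM in WT libraries. It fell by 0.23 on the log2 scale (limma adjusted p = 0.0164), a call lost without p53-deficient replicate 1 (adjusted p = 0.0524) or 3 (0.0521), without WT replicate 3 (0.0566) and after quantile normalization (0.0641). Exons of Rmc1 on the other strand overlap those of Npc1 by 511 bases, and Rmc1 averaged 5.50 FPKM in p53-deficient and 15.7 FPKM in WT cells.

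**Figure D3:**
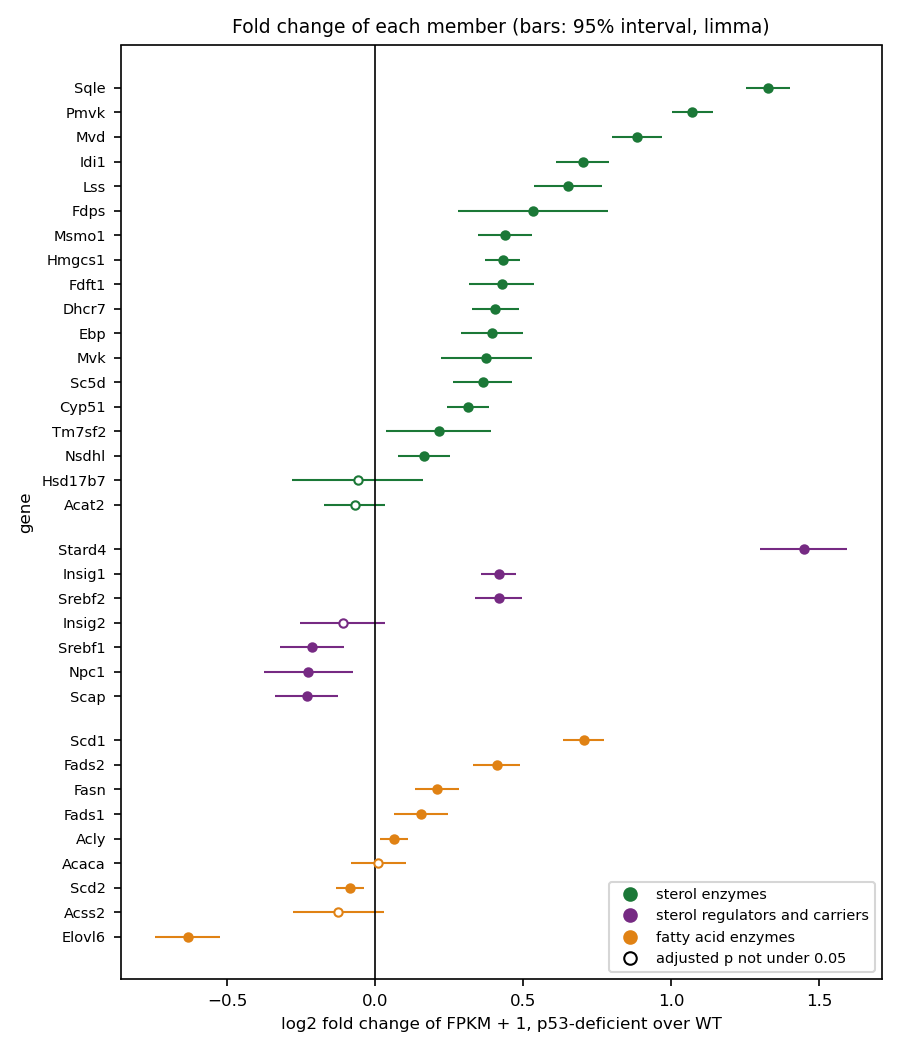
Log2 fold change of FPKM + 1, p53-deficient over WT, of each of the 34 genes (points) with its 95% interval from limma (bars), grouped by role; open points did not pass. The sterol enzymes reach from -0.07 to 1.33 with 16 filled points right of 0, and the fatty acid enzymes from -0.63 to 0.70.

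Fatty acid synthesis starts from citrate and acetate, and Acly and Acss2, the members that use them, were near their WT level. Slc25a1, the citrate carrier, belongs to the wider fatty acid list below and rose. It averaged 47.1 ± 2.66 FPKM in p53-deficient cells and 38.5 ± 1.11 FPKM in WT cells (log2 fold change 0.28, limma adjusted p = 0.00138). Acly, ATP citrate lyase, which makes cytosolic acetyl-CoA from citrate, had 105, 107 and 106 FPKM in p53-deficient libraries, against 100, 102 and 103 FPKM in WT libraries. The rise of 0.06 on the log2 scale (95% interval 0.01 to 0.11, limma adjusted p = 0.0294) was called in 5 of 15 settings. It turned to -0.04 under scaling by the median log2 ratio and -0.02 after quantile normalization, and leaving out any single library except p53-deficient replicate 1 ended the call, with adjusted p between 0.0529 and 0.104. Acss2, which makes acetyl-CoA from acetate, had 2.21, 2.37 and 2.14 FPKM in p53-deficient libraries, against 2.39, 2.78 and 2.43 FPKM in WT libraries. Its p53-deficient values all lay below the WT values, but the change of -0.12 (95% interval -0.28 to 0.03) did not pass (limma adjusted p = 0.125). It was called lower under scaling by the median log2 ratio (adjusted p = 0.0338) and with voom weights (adjusted p = 0.0119). Exons of Gss on the other strand overlap those of Acss2 by 395 bases. Gss averaged 22.1 FPKM in p53-deficient and 24.3 FPKM in WT cells, far above Acss2 and lower in the same group.

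Acaca and Fasn carry out the chain building itself. Acaca, acetyl-CoA carboxylase, had 4.60, 4.62 and 4.82 FPKM in p53-deficient libraries, against 4.63, 4.57 and 4.73 FPKM in WT libraries. The values are interleaved, with a difference of 0.01 (95% interval -0.08 to 0.10, limma adjusted p = 0.849) whose sign depended on the scaling. Its pseudogene Gm5182, 99.2% identical over 6117 bases, averaged 3.36 FPKM in p53-deficient and 2.93 FPKM in WT cells. Fasn, the fatty acid synthase, had 57.2, 56.0 and 58.2 FPKM in p53-deficient libraries, against 47.9, 49.0 and 51.1 FPKM in WT libraries. It rose 1.16-fold without overlap (log2 fold change 0.21, SE 0.0307, limma adjusted p = 0.00101), a smaller change than the median of the sterol enzymes.

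The desaturases and the elongase gave the widest differences of the fatty acid branch, in both directions. Scd1, a stearoyl-CoA desaturase that makes oleate, had 37.6, 37.0 and 38.7 FPKM in p53-deficient libraries, against 23.2, 22.3 and 22.9 FPKM in WT libraries. It rose 1.66-fold (log2 fold change 0.70, SE 0.0285, limma adjusted p = 2.58e-06), about as much as Idi1 in the sterol branch. Scd2, its neighbour on chromosome 19 and the more abundant form, had 103, 104 and 104 FPKM in p53-deficient libraries, against 110, 109 and 111 FPKM in WT libraries. It fell slightly, to 0.942 times the WT mean (log2 fold change -0.09, limma adjusted p = 0.00760). The desaturase genes are 95.5% identical over 623 bases, so reads from that stretch could be assigned to either.

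Elovl6 (chr3:129532355-129638495), which lengthens palmitate to stearate, had 16.9, 18 and 18.7 FPKM in p53-deficient libraries, against 27.3, 28.1 and 29.5 FPKM in WT libraries. It fell to 0.632 times the WT mean (log2 fold change -0.63, SE 0.0455, limma adjusted p = 3.22e-05), the largest fall of the 34 genes. Fads2, which starts the desaturation of polyunsaturated fatty acids, had 43.6, 44.8 and 47.3 FPKM in p53-deficient libraries, against 33.8, 33.5 and 34.1 FPKM in WT libraries, and rose 1.34-fold (limma adjusted p = 5.76e-05). Fads1, the next desaturase, had 21.9, 21.7 and 23.4 FPKM in p53-deficient libraries, against 19.6, 19.7 and 20.5 FPKM in WT libraries. Its rise of 0.16 (limma adjusted p = 0.00995) did not pass under scaling by the median log2 ratio (adjusted p = 0.217) or quantile normalization (adjusted p = 0.133).

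The branches differed in how much of their summed level moved. The sum over the 9 fatty acid enzymes was 392, 396 and 403 FPKM in p53-deficient libraries, against 369, 371 and 379 FPKM in WT libraries. That is 397 ± 5.70 FPKM in p53-deficient cells and 373 ± 5.37 FPKM in WT cells (SD, n = 3 each), and Acly and Scd2 make up most of it. The 7 regulators and carriers summed to 136 ± 1.23 FPKM in p53-deficient cells and 111 ± 1.26 FPKM in WT cells. The median log2 fold change of the sterol enzymes exceeded that of the fatty acid enzymes by 0.35. The spread of that difference was 0.0337, the square root of the summed variances between libraries of both groups. The difference lay between 0.261 and 0.386 in all alternatives tried. After scaling by the median log2 ratio the counts were 14 higher and 1 lower for the sterol enzymes, and 3 higher and 3 lower for the fatty acid enzymes. Quantile normalization gave 15 and 1 for the sterol enzymes and 3 and 2 for the fatty acid enzymes.

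**Figure D4:**
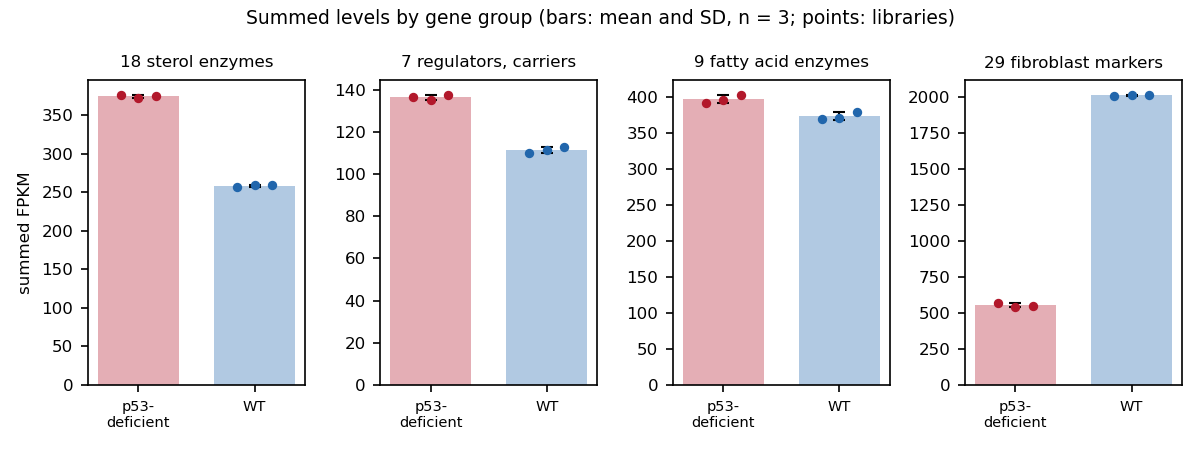
Summed FPKM of each gene group in p53-deficient and WT libraries (bars: mean with SD, n = 3; points: libraries; axes from 0). The sterol enzymes are higher in p53-deficient cells with 375 against 258 FPKM, the fatty acid enzymes differ less with 397 against 373 FPKM, and 29 fibroblast markers are lower.

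Of 17 further sterol genes counted here, 12 were tested, and 4 rose, 4 fell and 4 did not pass. These counts are near the shares over all genes tested, 35.3% higher and 31.3% lower. The rises were those of Mylip, Erg28, Acat1 and Osbp, of which Erg28, Acat1 and Osbp were named after their values were seen. Mylip, which encodes a ubiquitin ligase and is a target of LXR, averaged 4.91 ± 0.0961 FPKM in p53-deficient cells and 2.79 ± 0.143 FPKM in WT cells (log2 fold change 0.64, limma adjusted p = 3.26e-05). Erg28, a scaffold of the enzymes that remove methyl groups from sterols, averaged 14.3 ± 0.217 FPKM in p53-deficient cells and 10.2 ± 0.573 FPKM in WT cells (0.45, limma adjusted p = 0.000114).

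The 4 genes of that list that fell were Ch25h, Npc2, Mbtps2 and Soat1. Ch25h, which makes 25-hydroxycholesterol, an inhibitor of SREBP processing, had 1.09, 1.09 and 0.882 FPKM in p53-deficient libraries, against 10.1, 10.9 and 10.8 FPKM in WT libraries (log2 fold change -2.52, limma adjusted p = 2.90e-07). Npc2, the lysosomal partner of Npc1, averaged 35 ± 1.72 FPKM in p53-deficient cells and 63.4 ± 0.893 FPKM in WT cells (-0.84, limma adjusted p = 4.23e-06). Mbtps2 and Mbtps1 encode the proteases that cut SREBP. Mbtps2 averaged 4.57 ± 0.176 FPKM in p53-deficient cells and 7.86 ± 0.384 FPKM in WT cells (-0.67, limma adjusted p = 2.99e-05). Mbtps1, with 17.9 ± 0.0750 FPKM in p53-deficient cells and 17.5 ± 0.416 FPKM in WT cells, did not pass (limma adjusted p = 0.371).

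Genes of sterol efflux and of the LXR receptors, which sense oxysterols, gave no rise. Of 6 tested 3 fell and 3 did not pass, beside 31.3% of all genes tested called lower. Under either scaling alternative 5 were called lower. Over all genes 4733 were lower, against 5611 under scaling by the median log2 ratio and 4516 after quantile normalization. Abca1, a cholesterol exporter and a target of LXR, had 2.69, 3.06 and 2.91 FPKM in p53-deficient libraries, against 9.45, 9.63 and 10.1 FPKM in WT libraries. Its mean was 0.297 times that of WT (log2 fold change -1.46, limma adjusted p = 1.23e-06). Abcg1, a second exporter, averaged 0.590 ± 0.124 FPKM in p53-deficient cells and 1.22 ± 0.0225 FPKM in WT cells (-0.48, limma adjusted p = 0.00170). Nr1h2, which encodes LXR beta, averaged 22.9 ± 0.972 FPKM in p53-deficient cells and 25.2 ± 0.293 FPKM in WT cells (-0.13, limma adjusted p = 0.0135). Apoe, with 199 ± 8.07 FPKM in p53-deficient cells and 201 ± 4.51 FPKM in WT cells, did not pass (limma adjusted p = 0.715). Fibroblasts express Abca1 and Ch25h as well, and whether these genes fell in the stem cells was not tested.

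**Figure D5:**
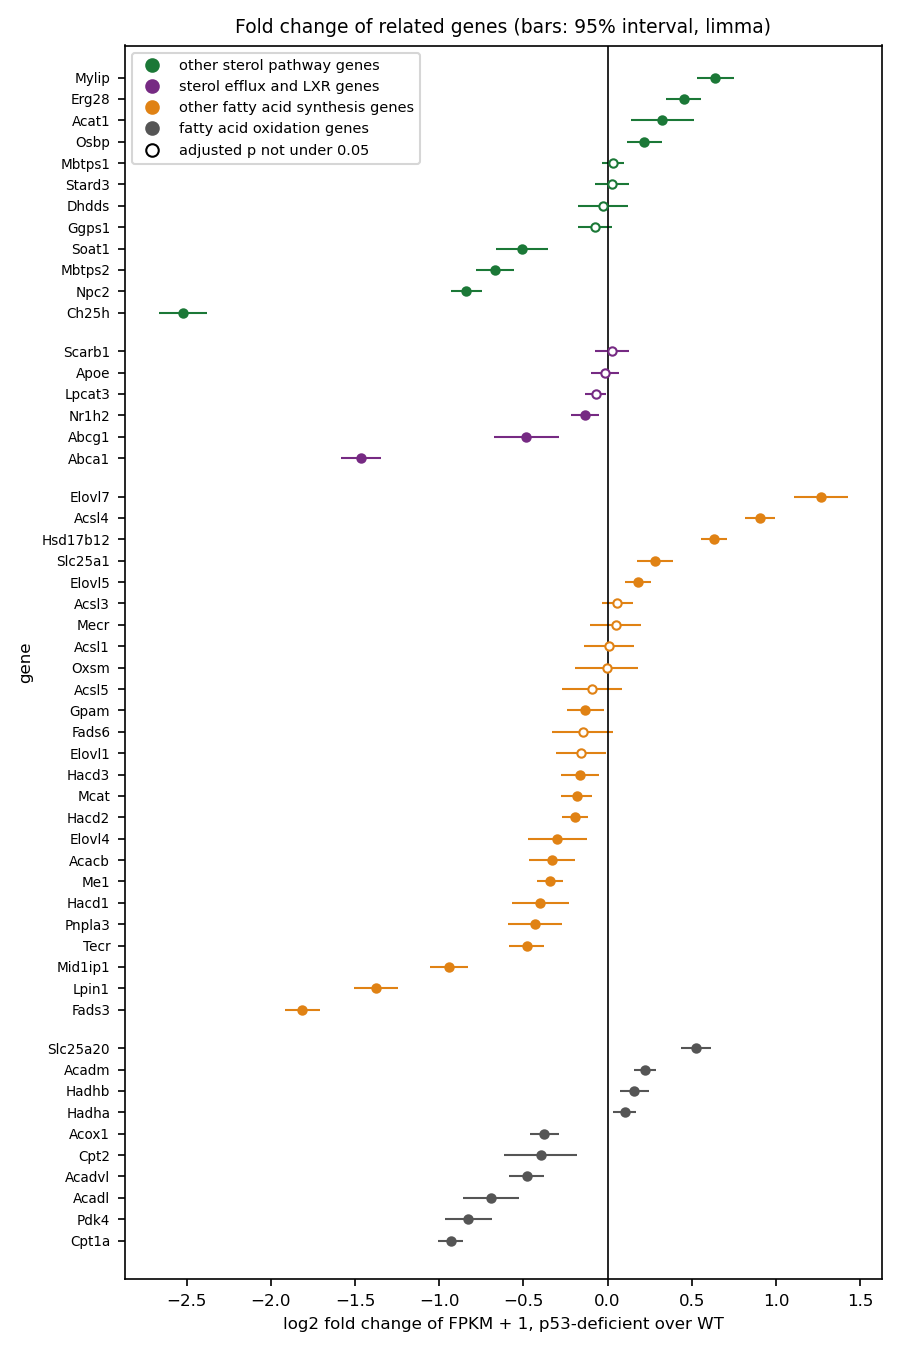
Log2 fold change of FPKM + 1, p53-deficient over WT, of genes of 4 neighbouring lists (points) with 95% intervals from limma (bars); open points did not pass. Ch25h, Fads3, Abca1 and Lpin1 lie farthest to the left, and Elovl7 farthest to the right at 1.27. Elovl7 passed the filter on low values only through its p53-deficient libraries.

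In the wider fatty acid list 25 of 30 genes were tested, where 7 did not pass, 13 fell and 5 rose. Over all genes tested 31.3% fell and 35.3% rose. The median log2 fold change of the list was -0.16. Fads3, a relative of Fads1 and Fads2, averaged 1.44 ± 0.0349 FPKM in p53-deficient cells and 7.58 ± 0.211 FPKM in WT cells (-1.81, limma adjusted p = 2.84e-07). Lpin1, a phosphatidate phosphatase, averaged 0.745 ± 0.00224 FPKM in p53-deficient cells and 3.53 ± 0.176 FPKM in WT cells (-1.38, limma adjusted p = 2.36e-06). Mid1ip1, an activator of acetyl-CoA carboxylase, averaged 16.5 ± 1.01 FPKM in p53-deficient cells and 32.5 ± 0.898 FPKM in WT cells (-0.94, limma adjusted p = 6.34e-06). The largest rise was in Elovl7, an elongase of very long chains, with 2.31 ± 0.164 FPKM in p53-deficient cells and 0.375 ± 0.0314 FPKM in WT cells (1.27, limma adjusted p = 7.88e-06). Its WT mean is below the filter of 0.5 FPKM, so Elovl7 entered the test only through its p53-deficient values. Acsl3, which activates fatty acids, had 17.5 ± 0.503 FPKM in p53-deficient cells and 16.8 ± 0.691 FPKM in WT cells and did not pass (limma adjusted p = 0.228).

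Of 12 genes of fatty acid oxidation 10 were tested, and 6 fell and 4 rose, beside 31.3% and 35.3% of all genes tested. Cpt1a, which admits fatty acids to the mitochondrion, averaged 18.6 ± 0.276 FPKM in p53-deficient cells and 36.3 ± 1.17 FPKM in WT cells (-0.93, limma adjusted p = 1.10e-06). Pdk4, a kinase that spares glucose when fatty acids are burnt, averaged 0.670 ± 0.0225 FPKM in p53-deficient cells and 1.96 ± 0.0756 FPKM in WT cells (-0.83, limma adjusted p = 2.86e-05). Acadl, a long-chain dehydrogenase, averaged 8.23 ± 0.824 FPKM in p53-deficient cells and 13.9 ± 0.647 FPKM in WT cells (-0.69, limma adjusted p = 0.000144). The carnitine carrier Slc25a20 moved the other way, with 17.8 ± 0.362 FPKM in p53-deficient cells and 12.1 ± 0.521 FPKM in WT cells (0.53, limma adjusted p = 3.13e-05). After scaling by the median log2 ratio the list gave 2 higher and 6 lower.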

How the data were processed

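The authors deposited FPKM per gene and library, with gene lengths and mm10 coordinates, per the file headers. The submitters' processing notes name featureCounts 1.5.0-p3 and HISAT2 2.0.5 without their roles. Per the labels' protocols mRNA was taken with poly-T beads and a NEBNext Ultra kit, not stated to mark the strand. Multiplied by length, 100% of values were whole multiples of 1 read's worth (tolerance 0.001), so reads were rebuilt. The divisor was 99.1% to 101% of reads in listed genes.

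Columns were matched to samples by group and final number. The test was limma 3.58.1 (R 4.3.3, variance trend, both sides) on log2(FPKM + 1). Genes averaging at least 0.5 FPKM entered, with Benjamini-Hochberg adjustment over 15144 genes. Fold changes on this scale understate the change of low genes. For 1 gene alone, exact permutation of 3 against 3 libraries gives no p below 0.1. The fit was tested on simulated reads. BLAST+ 2.17.0 found near-identical copies (minimum identity 95%, over a minimum of 50% of the shorter transcript). Promoter sequences are from RefSeq. The alternatives were a pseudocount of 0.1, other filters, quantile normalization, scaling by the median log2 ratio, array weights, no variance trend, a replicate block, voom weights on rebuilt reads, each library left out and, added after the data were seen, genes without an expressed copy.

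The members, roles, neighbouring lists and markers were chosen with earlier results of these data known. The rule for named genes took all 34 members, Trp53, Cdkn1a, and expressed copies or overlapping neighbours, of which not all are named. From each neighbouring list it took up to 4 called genes of largest change and the most abundant gene that did not pass. Erg28, Acat1, Osbp, Soat1, Slc25a1, the markers Utf1, Esrrb and Pdgfra, and other genes under other observations were named after their values were seen. Some further sterol genes are not reported here. Of 30 fibroblast markers 29 were in the table.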

Additional observations from a re-analysis of the deposited data

How the results depend on the processing

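Of 504 log2 fold changes of single members under an alternative, 467 kept their direction and their side of the threshold, 23 lost the call, 7 gained one and 7 changed sign. The sign changes were those of Acaca, with -0.0723 under scaling by the median log2 ratio, -0.0112 with voom weights and -0.00883 to 0.0206 when libraries were left out, of Acly, with -0.0351 under scaling by the median log2 ratio and -0.0195 after quantile normalization, and of Hsd17b7, with -0.161 to 0.0227 when libraries were left out. The causes were not tested.

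The median of the sterol enzymes (0.42) was 0.44 with a pseudocount of 0.1, 0.32 under scaling by the median log2 ratio and 0.37 after quantile normalization. The median of the fatty acid enzymes (0.06) was 0.155 among genes of mean FPKM at least 5, -0.0351 under scaling by the median log2 ratio, 0.0394 with voom weights and 0.11 without members that have an expressed copy. The sterol minus fatty acid difference (0.35) was 0.26 among genes of mean FPKM at least 5, 0.30 after quantile normalization and 0.29 without members that have an expressed copy. The number of sterol enzymes called lower (0) was 1 after quantile normalization, under scaling by the median log2 ratio and with voom weights, and 0 to 1 when libraries were left out, where 1 came without p53-deficient replicate 2. The number of fatty acid enzymes called higher (5) was 3 under scaling by the median log2 ratio and after quantile normalization, and the number called lower (2) was 1 without members that have an expressed copy. Without such members fewer genes are counted. Among all genes 3676 were higher and 2268 lower at mean FPKM of at least 5, where fewer genes are tested, against 5341 and 4733. Scaling by the median log2 ratio gave 4258 higher and 5611 lower genes, against 5341 and 4733. The median of all genes (0.03) was -0.00573 with no filter, 0.0972 at mean FPKM of at least 5 and -0.0495 under scaling by the median log2 ratio.

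With the replicate number as a block, 15 sterol enzymes and 4 fatty acid enzymes were higher, and 5187 genes were higher and 4579 lower; the calls of Tm7sf2 and Acly were lost. Libraries of the same number did not deviate together (correlations -0.0328, 0.0142 and 0.00556). No shared effect of the number was seen, but deviations from means of 3 libraries cannot show that the samples are unpaired. Fdps rests on 19 to 67 reads per library, and its log2 fold change (0.53) was 1.52 with voom weights and 1.33 with 0.1 as pseudocount.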

Other observations

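The cycle that lengthens very long fatty acids has 4 steps, and its genes moved apart. Hsd17b12, the ketoreductase of the cycle, averaged 66.2 ± 0.492 FPKM in p53-deficient cells and 42.4 ± 1.68 FPKM in WT cells (log2 fold change 0.63, limma adjusted p = 6.57e-06). Tecr, the reductase of the last step, averaged 48.0 ± 2.75 FPKM in p53-deficient cells and 67.4 ± 1.33 FPKM in WT cells (-0.48, limma adjusted p = 9.37e-05). The dehydratases of the step between them, Hacd1, Hacd2 and Hacd3, fell with -0.40, -0.19 and -0.17, although the call of Hacd3 was lost with the replicate block and without WT replicate 2 (adjusted p up to 0.0620). Among elongases, which carry out the first step, Elovl5 rose with 0.18 and Elovl4 fell with -0.30. Elovl5 lost its call under both scaling alternatives (adjusted p up to 0.0559) and Elovl4 after quantile normalization (adjusted p = 0.0608), while Elovl1, at 7.71 ± 0.314 FPKM in p53-deficient cells and 8.72 ± 0.728 FPKM in WT cells, did not pass.

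Acsl4, which activates arachidonate, averaged 16.4 ± 0.141 FPKM in p53-deficient cells and 8.29 ± 0.361 FPKM in WT cells (0.91, limma adjusted p = 2.44e-06). Soat1, which esterifies cholesterol for storage, averaged 2.20 ± 0.233 FPKM in p53-deficient cells and 3.54 ± 0.0325 FPKM in WT cells (-0.51, limma adjusted p = 0.000428). The LXR target Mylip rose by 0.64 on the log2 scale, opposite in direction to the LXR target Abca1, which had a log2 fold change of -1.46.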
